A study of Mus musculus with 8 samples.

Results

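The genes described here make or break down prostaglandins: Ptgs1 and Ptgs2, which encode the cyclooxygenases, Ptgds, which encodes the lipocalin-type prostaglandin D synthase, and Hpgd, which encodes 15-hydroxyprostaglandin dehydrogenase. All probe sets annotated to these 4 genes were taken, which gave 5 of the 12488 probe sets on the array and 3 of the 8252 genes that have a probe set of their own. Hpgd had 1 probe set, Ptgds had 3 and Ptgs2 had 1. The annotation used here listed 0 probe sets for Ptgs1, so Ptgs1 was not analysed here. The 4 genes were picked with their levels on these arrays known. Their values are therefore given as a description without a test.

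Gonads of mouse embryos were measured on Affymetrix MG_U74Av2 arrays. The wild type (WT) carried no stated alteration, and the knock-out (KO) was labelled as lacking Wnt4, a secreted signal of the fetal ovary. The 8 groups were WT females, KO females, WT males and KO males at embryonic day 12.5 (E12.5) and the same at E14.5, with 1 array for each and no replicate. Precision is limited by this number of arrays. The labels do not give the strain, the number of embryos in a sample or the extent of the Wnt4 deletion.

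Prostaglandins are lipid signals made from arachidonic acid that phospholipases release from membranes. Cyclooxygenases turn it into prostaglandin H2, which synthases such as Ptgds convert to the separate prostaglandins, and Hpgd inactivates them by oxidation. In the fetal testis Ptgds is known as a gene of Sertoli cells, the supporting cells of the cords, where prostaglandin D2 helps to keep the transcription factor Sox9 active. In gonads of whole embryos, fewer cells of a type and less RNA per cell cannot be told apart.

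Promoter sequence is shown for the pair of genes that the results turn on, Hpgd and Ptgds. Each is the stretch of 250 bases before the transcript start, 5′ to 3′ on the gene's own strand, from RefSeq on GRCm38.p6. The Hpgd stretch is chr8:56294302-56294551 on the plus strand and the Ptgds stretch is chr2:25469750-25469999 on the minus strand. Capitals mark matches to 6 motifs searched on both strands: the TATA box (TATAAA), the AP-1 site (TGANTCA), the SOX core (AACAAT), the TCF/LEF core (CTTTGA), the NR5A1 core (CAAGGTC) and the GATA core (AGATAA).
Hpgd: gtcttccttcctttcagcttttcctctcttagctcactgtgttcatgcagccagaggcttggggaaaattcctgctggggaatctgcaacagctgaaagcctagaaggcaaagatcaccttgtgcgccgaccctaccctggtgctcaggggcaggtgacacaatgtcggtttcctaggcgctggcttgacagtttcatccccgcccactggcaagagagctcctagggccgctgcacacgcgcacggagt
Ptgds: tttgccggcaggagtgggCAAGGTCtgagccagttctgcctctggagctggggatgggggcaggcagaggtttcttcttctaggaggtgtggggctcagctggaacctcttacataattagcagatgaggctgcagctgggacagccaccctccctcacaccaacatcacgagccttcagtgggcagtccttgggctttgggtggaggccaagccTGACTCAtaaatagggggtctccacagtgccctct

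The Ptgds stretch held 1 match to the NR5A1 core, beginning 232 bases before the start, and 1 to the AP-1 site, beginning 35 bases before it. NR5A1 is a nuclear receptor of gonad somatic cells. Of 32851 promoters of the same length, 3.32% held the NR5A1 core and 6.75% the AP-1 site. No match to any of the 6 motifs was found in the Hpgd stretch, which says only that these letters are not in this window. No overlap occurred between the matches shown.

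Levels are log2 signals, shifted so that all arrays have the same median, and differences are log2 differences of these values. A floor of 6.99, the level below which the lowest 40% of all values lay, was applied before differences of single probe sets were taken and before the fit. The means of marker lists and the likeness of profiles used values that were not floored. The floor was exceeded on at least 2 arrays by 4 of the 5 probe sets, which were fitted with 8448 others, 8452 in all.

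Some facts of the arrays touch the results. Between 59.7% and 60.4% of probe sets lay above the floor on each. The E14.5 male arrays stood apart: 21.2% of the fitted probe sets differed at least 2-fold between WT males at E14.5 and E12.5, against 1.02% for WT females. Centring added 0.43 and 0.47 to these arrays and between -0.34 and 0.09 to the others. The gap between the 3′ and 5′ actin probe sets, a measure of RNA quality, was 0.96 to 1.37 on male arrays and 0.48 to 0.77 on female arrays. The array labelled WT female E14.5 carried a Y-linked signal: Eif2s3y was at 7.63 there, against 4.86 to 6.04 on the other female arrays and 6.91 to 8.12 on the male arrays. Xist, which coats the inactive X chromosome, was at 7.10 there, the lowest of the female arrays. Wnt4, the gene knocked out, was lower in the KO in all 4 pairs, from 9.42 to 9.19 in E14.5 males and from 10.19 to 8.59 in E12.5 females. Whether its probe set lies in the deleted part was not stated.

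**Figure D1:**
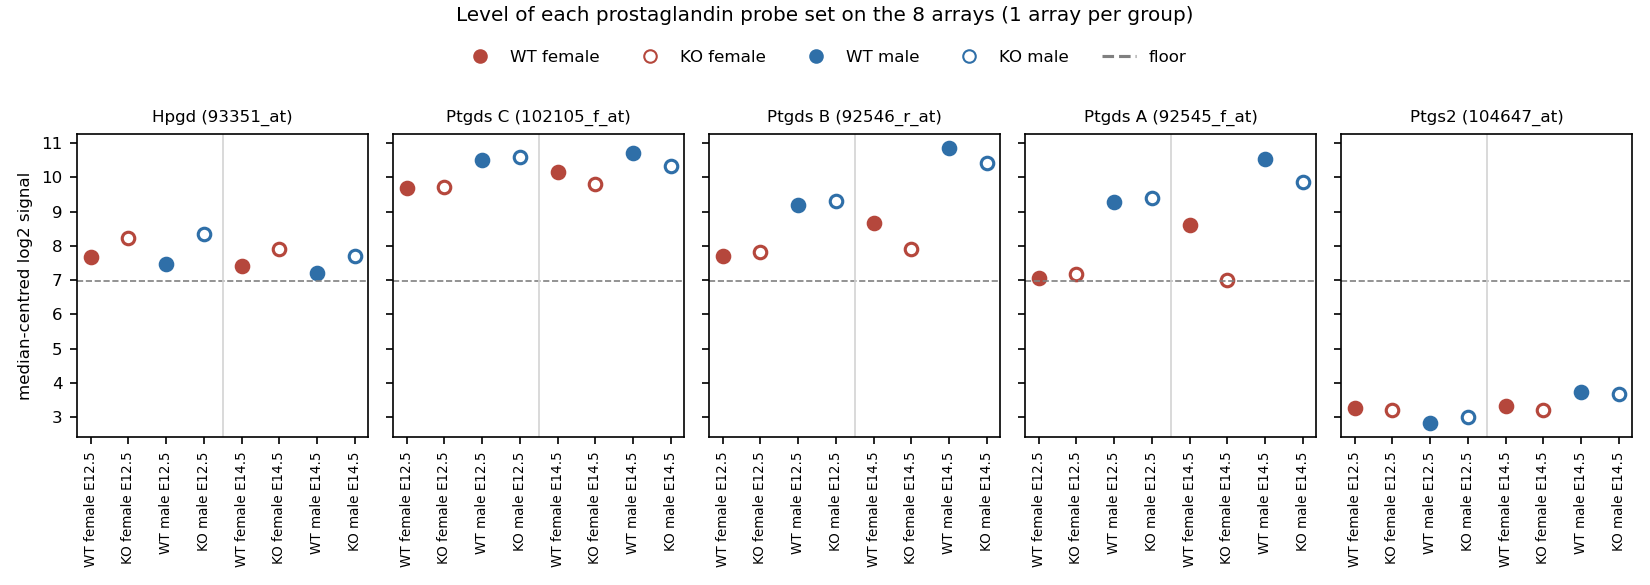
Median-centred log2 signal of each probe set on the 8 arrays, with females in red, males in blue, WT filled and KO open, and the floor of 6.99 as a dashed line. Hpgd is higher in the KO of every pair, Ptgds is higher in males, and Ptgs2 stays below the floor on every array.

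Hpgd, the enzyme of prostaglandin breakdown, was higher in the KO gonad than in the WT gonad of the same sex and stage in all 4 pairs. At E12.5 its level was 7.66 in WT and 8.24 in KO females, and 7.47 in WT and 8.34 in KO males. At E14.5 its level was 7.42 in WT and 7.91 in KO females, and 7.21 in WT and 7.71 in KO males. The WT side of the E14.5 female pair is the array labelled WT female E14.5, which carried the Y-linked signal. The genotypes did not overlap over the 8 arrays: the highest WT array, the E12.5 female at 7.66, lay below the lowest KO array, the E14.5 male at 7.71. All 4 KO arrays lay above all 4 WT arrays for 0.0355% of the 8441 fitted probe sets with no missing value, 3 in number, and nothing is read from this for a gene chosen on the contrast.

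The KO minus WT differences of Hpgd were 0.58 in females and 0.88 in males at E12.5, and 0.49 in females and 0.50 in males at E14.5. As signal the largest is 1.84-fold and the smallest 1.41-fold. No pair reached 2-fold, which 0.225% of fitted probe sets did in females at either stage, 0.107% in E12.5 males and 0.0592% in E14.5 males. Among the fitted probe sets, 25 had a KO minus WT difference at least as high as Hpgd in E12.5 females, Hpgd itself included. That number was 10 in E12.5 males, 45 in E14.5 females and 65 in E14.5 males. The difference was positive in all 4 pairs for 3.14% of the probe sets with no missing value, and 2 of 8441 (0.0237%) were at least as high as the smallest Hpgd difference in all 4. The other was Postn, a matrix protein gene, which was named after its values were seen. These shares are background to a gene chosen on this contrast, and nothing is read from them.

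In the fit over all arrays the KO effect on Hpgd was 0.54 ± 0.10 (SE) in females and 0.69 ± 0.10 in males, ranks 12 and 3 from the top of the 8452 probe sets. Over both sexes it was 0.61 ± 0.07. The male effect minus the female effect was 0.15 ± 0.15, about the size of its error, and turned to -0.02 without centring and to -0.04 when either E12.5 male array was left out. SEs come from limma with 2 residual and 2.77 prior degrees of freedom. They draw on how far the KO effect differed between the stages, pooled over both sexes, and on the variance of the other fitted probe sets. They do not measure the spread between embryos.

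Hpgd was lower at E14.5 than at E12.5 in each of the 4 groups. The stage difference was -0.24 in WT females, -0.33 in KO females, -0.26 in WT males and -0.64 in KO males. The E14.5 male pairs rest on the arrays that stood apart, and -0.26 lay above 37.2% of the fitted probe sets there. Between the sexes Hpgd differed little: male minus female was -0.20 in WT and 0.10 in KO at E12.5, and -0.21 in WT and -0.20 in KO at E14.5. The 4 values do not share a sign. The WT female stage difference and the WT sex difference at E14.5 use the array with the Y-linked signal. The sex difference averaged over the stages was -0.20 ± 0.10 in WT and -0.05 ± 0.10 in KO.

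Marker lists were read beside Hpgd. The mean level of 8 endothelial markers was also higher in the KO of all 4 pairs, by 0.07 and 0.14 in females and by 0.19 and 0.11 in males at E12.5 and E14.5. The mean of 4 coelomic epithelium markers was higher by 0.02, 0.07, 0.31 and 0.32 in the same order. Single genes of these lists differed by as much as Hpgd in some pairs: Emcn, an endothelial sialomucin gene, by 0.51 in females and 0.58 in males at E14.5, and Krt19, a keratin gene of the coelomic list, by 0.71 in E14.5 males (both named after their values were seen). Their other pairs differed by less than Hpgd. At E12.5 Emcn was at 9.55 in WT and 9.58 in KO females and at 9.57 in WT and 9.87 in KO males. Krt19 was at 8.94 in WT and 8.72 in KO females and at 8.26 in WT and 8.61 in KO males at E12.5. In E14.5 females Krt19 was at 9.13 in WT and 9.24 in KO. The mean of 12 macrophage markers was higher by 0.05, 0.10 and 0.15 in the first 3 of these pairs and at -0.06 in E14.5 males. At least 7 of the 8 endothelial markers, 3 of the 4 coelomic markers and 7 of the 12 macrophage markers lay above the floor on every array. Other lists moved further with genotype but without a shared sign. The mean of 6 pregranulosa markers, the supporting cells of the ovary, taken without Wnt4 and without genes with a missing value, differed by -1.22 and -0.62 in females and by -0.50 and 0.73 in males at E12.5 and E14.5. The mean of 6 Leydig markers, the steroid-making cells of the testis, differed by 0.49 and -1.005 in females and by 0.27 and -0.41 in males. At E12.5, 1 of these 6 lay above the floor in WT females and 3 in KO females. All E14.5 female differences of these lists use the array with the Y-linked signal. The part of any of these lists in the Hpgd difference was not tested.

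**Figure D2:**
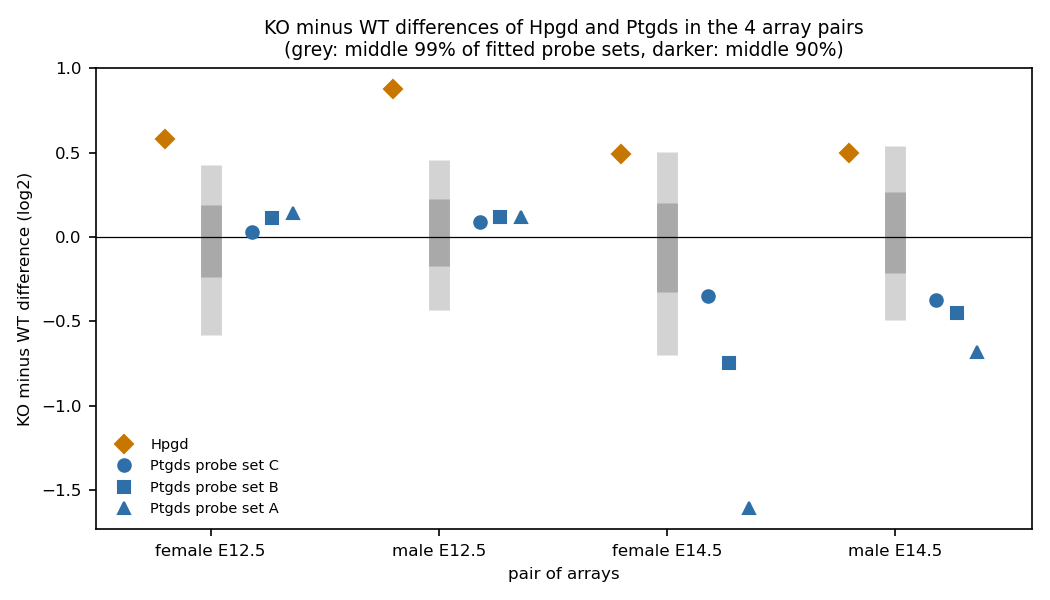
KO minus WT difference (log2) of Hpgd (orange) and of the 3 Ptgds probe sets (blue) in the 4 array pairs. Grey bars span the middle 99% of fitted probe sets and the darker part the middle 90%. Hpgd lies between 0.49 and 0.88 in all 4 pairs, while the Ptgds probe sets lie between 0.03 and 0.14 at E12.5 and between -1.61 and -0.35 at E14.5.

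The genes whose levels followed Hpgd most closely were found by the root mean square difference between unfloored profiles after each profile's mean was subtracted. Over the 8 arrays they were Gadd45a, a stress gene that acts on the cell cycle (0.19), the transcription factor gene Gata6 (0.20), the slow skeletal troponin gene Tnni1 (0.20), Ptprv (0.23) and the blood transcription factor gene Lyl1 (0.23). Without the E14.5 males, over 6 arrays, they were the myosin light chain gene Myl7 (0.17), Ebf3 (0.17), Gadd45a (0.17), the chemokine gene Cxcl12 (0.18) and the lipase gene Lpl (0.18). Gadd45a was in both sets. Gata6 was at 9.82 in WT and 9.93 in KO females and at 9.48 in WT and 9.91 in KO males at E12.5. At E14.5 Gata6 was at 9.51 in WT and 9.78 in KO females and at 9.07 in WT and 9.36 in KO males.

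Ptgds, the synthase of prostaglandin D2, was higher in males than in females of the same genotype and stage on all 3 of its probe sets. The annotation ties a pair of these probe sets to 1 transcript record, called A (name ending in f) and B (ending in r) here, and the third, C (ending in f), to another record. By Affymetrix naming, f marks probes that can also detect related sequences and r marks sets for which some design rules were relaxed. The widest range was that of A. At E12.5 it was at 7.05 in WT and 7.19 in KO females, close to the floor, and at 9.29 in WT and 9.41 in KO males. At E14.5 it was at 8.62 in WT females and 7.02 in KO females, and at 10.54 in WT and 9.86 in KO males. All 4 male arrays lay above all 4 female arrays, as they did for 9.32% of the fitted probe sets with no missing value, and WT females at E14.5 lay well above the other 3 female arrays.

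Probe set B gave 7.71 in WT and 7.83 in KO females and 9.18 in WT and 9.30 in KO males at E12.5. At E14.5 it gave 8.67 in WT and 7.92 in KO females and 10.86 in WT and 10.41 in KO males. The order of the arrays by sex was the same, with the WT E14.5 female again the highest female. Probe set C varied least, over 1.03 against 3.52 for A. At E12.5 it was at 9.68 in WT and 9.71 in KO females and at 10.52 in WT and 10.61 in KO males. At E14.5 it was at 10.16 in WT and 9.81 in KO females and at 10.71 in WT and 10.34 in KO males, with all males above all females.

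At E12.5, where no E14.5 male array is involved, the male minus female difference of Ptgds was 2.24 in WT and 2.21 in KO on A, or 4.72-fold and 4.64-fold. It was 1.47 and 1.48 on B and 0.84 and 0.90 on C. Thus 2 of the 3 probe sets were at least 2-fold higher in males in both genotypes, where 0.26% of all fitted probe sets were so in WT and 0.344% in KO. On A, 1 other fitted probe set had a male minus female difference as high or higher in each genotype. The 3 probe sets measure 1 gene, which was chosen with its levels known, so nothing is read from the shares given for Ptgds. At E14.5 the differences were 1.92 in WT and 2.84 in KO on A, 2.19 and 2.49 on B, and 0.55 and 0.53 on C. The WT values at E14.5, and the WT averages below, use the array labelled WT female E14.5, which carried the Y-linked signal. On that array A was at 8.62, against 7.02 to 7.19 on the other female arrays. At least 2-fold higher in E14.5 males were 7.69% of the fitted probe sets in WT and 7.05% in KO. Averaged over the stages, the fit gave 2.08 ± 0.44 in WT and 2.53 ± 0.44 in KO for A, 1.83 ± 0.24 and 1.98 ± 0.24 for B, and 0.70 ± 0.14 and 0.71 ± 0.14 for C. The actin gap also differed by sex at both stages. At E12.5 it was 0.96 in WT and 1.10 in KO males, against 0.48 in WT and 0.49 in KO females. Its part in the sex difference was not tested and cannot be told apart from sex here.

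With age, Ptgds was higher at E14.5 than at E12.5 in WT gonads of both sexes on all 3 probe sets. In WT males the differences were 1.25, 1.68 and 0.19 on A, B and C, and in WT females they were 1.57, 0.95 and 0.48. The WT female values rest on 1 array, labelled WT female E14.5, which carried the Y-linked signal. In KO females the same differences were -0.18, 0.09 and 0.10, and without the WT female E14.5 array the fitted female stage difference of A was -0.18 in place of 0.70. In KO males they were 0.45, 1.11 and -0.27, so the probe sets did not share a sign. Without centring, the WT male difference of C turned to -0.58 and the KO male difference of A to -0.34. At least 2-fold higher at E14.5 were 7.50% of the fitted probe sets in WT males, 7.32% in KO males and 0.568% in WT females.

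The KO minus WT differences of Ptgds were small and positive at E12.5 and negative at E14.5. At E12.5 they were 0.14 in females and 0.12 in males on A, 0.11 and 0.12 on B, and 0.03 and 0.09 on C. These E12.5 values lay within the middle 90% of fitted probe sets, whose upper end was 0.19 in females and 0.23 in males. At E14.5 the Ptgds differences were -1.61 in females and -0.68 in males on A, -0.74 and -0.45 on B, and -0.35 and -0.37 on C. Of all fitted probe sets, 0.189% were at least 2-fold lower in KO females at E14.5, as 1 of the 3 Ptgds probe sets was. The KO effect in the fit, which averages the stages, was -0.73 ± 0.44 in females and -0.28 ± 0.44 in males on A. Without either E14.5 female array the female value was 0.14, and without either E14.5 male array the male value was 0.12, since each then rests on the E12.5 pair alone. The actin gap, the sign of RNA quality given above, also differed with genotype by stage: it was 0.48 in WT and 0.49 in KO females and 0.96 in WT and 1.10 in KO males at E12.5, but 0.77 in WT and 0.55 in KO females and 1.37 in WT and 1.09 in KO males at E14.5. It was thus lower in both E14.5 KO arrays, as Ptgds was, and its part was not tested.

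The mean of Sertoli cell markers shared the sex difference of Ptgds and its lower E14.5 values in the KO, but not the stage difference of A and B in males. Single markers varied. In WT at E14.5, 6 of the 9 fitted Sertoli genes were higher in males and 3 lower. Limma called 4 of the 9 higher in males and 0 lower in each genotype (44.4%). Of all fitted probe sets 63.6% passed in WT, 30.2% higher, and 57.2% in KO, 30.8% higher. The mean level of all 10 Sertoli markers with a probe set was 7.41 in WT and 7.52 in KO females and 8.57 in WT and 8.51 in KO males at E12.5. At E14.5 it was 7.87 in WT and 7.27 in KO females and 8.62 in WT and 8.15 in KO males. With stage it differed by 0.06 in WT and -0.36 in KO males, where Ptgds A differed by 1.25 and 0.45. Limma called 4 of the 9 fitted Sertoli genes lower and 2 higher with stage in males (66.7%). Of all fitted probe sets 77.8% passed there, 39.9% lower and 38.0% higher, so nothing is read from this count. The KO minus WT difference in E12.5 males was -0.06 for the Sertoli mean. Between 6 and 9 of the 10 lay above the floor on an array, and Fgf9 did so on none. The KO minus WT difference at E14.5 was negative or 0 for all 9 fitted Sertoli genes in females and negative for all 9 in males, with medians of -0.40 and -0.50, beside -0.01 and 0 over all fitted probe sets. The Leydig mean was 6.65 in WT and 7.14 in KO females and 7.10 in WT and 7.37 in KO males at E12.5. It was 8.00 in WT and 6.99 in KO females and 8.87 in WT and 8.47 in KO males at E14.5. The KO minus WT difference of this mean thus changed sign between the stages in both sexes, as that of Ptgds did. Single Leydig markers did not all move alike: after flooring, 3 of the 6 were higher and 2 lower in KO than in WT males at E12.5. At that stage 1 of the 6 lay above the floor in WT females, 3 in KO females, 4 in WT males and 5 in KO males. The part of these markers in the Ptgds differences was not tested. The E14.5 female difference was taken from the array labelled WT female E14.5, the one with the Y-linked signal.

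**Figure D3:**
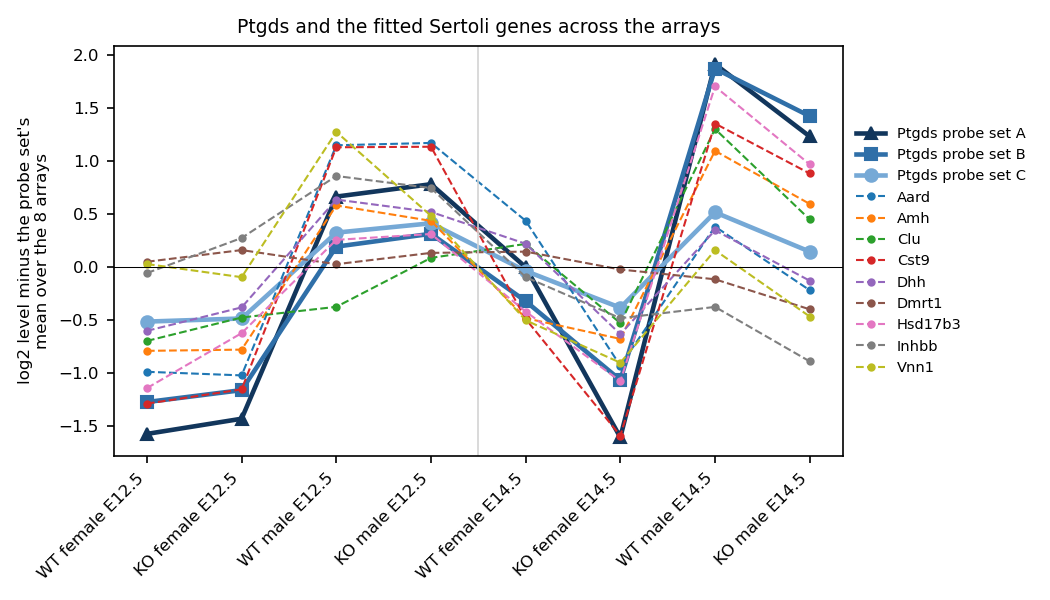
Log2 level of the 3 Ptgds probe sets (solid lines) and of all 9 fitted Sertoli genes (dashed lines) on the 8 arrays, each minus its own mean over the arrays. The Ptgds lines and 8 of the 9 Sertoli lines are higher in E12.5 males than in E12.5 females of either genotype, the exception being Dmrt1, and at E14.5 all are lower in KO than in WT females.

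Genes with profiles most like Ptgds probe set A over the 8 arrays were the cystatin gene Cst9 (root mean square difference 0.38), Gstm6 (0.44), a glutathione transferase gene, Uba1y (0.46), which is Y-linked, Hsd17b3 (0.47), a testosterone-making enzyme gene of fetal Sertoli cells, and the cartilage-type collagen gene Col9a3 (0.53). Over the 6 arrays without the E14.5 males the nearest was Aard (0.10), a gene of early Sertoli cells, then Me1 (0.28), Uba1y (0.29), the retinal dehydrogenase gene Aldh1a1 (0.31) and Cst9 (0.32). Aard was at 8.44 in WT and 8.41 in KO females and at 10.58 in WT and 10.60 in KO males at E12.5. At E14.5 Aard was at 9.87 in WT and 8.50 in KO females and at 9.81 in WT and 9.21 in KO males. Uba1y was at 6.96 in the sample labelled WT female E14.5, at 4.65, 4.80 and 5.29 on the other female arrays and at up to 7.49 on the male arrays. For probe set B the nearest were Hsd17b3 (0.26) over 8 arrays and Col9a3 (0.11) over 6, and Dhh, the hedgehog ligand of Sertoli cells, was the third over 6 (0.18). Hsd17b3 lay above the floor on 2 of the 8 arrays, so its likeness to A and B rests mostly on levels below the floor. For probe set C the nearest was the phosphatase gene Ptp4a3 (0.09) over 8 arrays and Trim47 (0.09) over 6, and no gene was shared with the other Ptgds probe sets. Among the nearest 5 to C were also the actin gene Actb over 6 arrays (0.09) and Polr2a over 8 (0.15). At E12.5 Actb was at 9.75 in WT and 9.90 in KO females and at 10.44 in WT and 10.55 in KO males.

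Ptgs2, the inducible cyclooxygenase, was not above the floor on any of the 8 arrays. Its level lay between 2.83 in WT males at E12.5 and 3.75 in WT males at E14.5, within the lowest 2.31% of probe sets on every array. No difference is given for Ptgs2, since both arrays of every pair were at the floor. Its probe set is thus not shown to detect a transcript in these gonads, which does not show that the transcript was absent.

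Other genes of the pathway were read from 5 lists, of which 45 genes had a probe set and 29 were fitted. No KO comparison passed for any of the 29 by limma at an adjusted p of 0.05, in females, in males or over both sexes, and none differed 2-fold in a KO pair. Limma called 0% of all fitted probe sets in these comparisons, with 962, 405 and 487 at an unadjusted p under 0.05. The median KO effect of the 29 was -0.01 in females and -0.03 in males, beside -0.02 and 0.01 over all fitted probe sets.

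By stage and sex, part of the lists passed. In males 16 of the 29 genes rose (55.2%) and 5 fell (17.2%) from E12.5 to E14.5, 72.4% in all, where 77.8% of all fitted probe sets passed, 38.0% higher and 39.9% lower. In females 3 rose and 1 fell (13.8%), where 23.1% passed, 8.41% higher and 14.6% lower, and 0 probe sets passed without any 1 of the 8 arrays or without both E14.5 male arrays. Between the sexes 12 of 29 were higher and 7 lower in WT males (65.5%), where 63.6% of all passed, 30.2% higher and 33.4% lower. In KO 11 were higher and 6 lower (58.6%), where 57.2% passed, 30.8% higher and 26.5% lower. These comparisons rest in part on the E14.5 male arrays. Leaving out WT female E12.5, WT male E12.5, WT female E14.5 or WT male E14.5 took the WT count over all probe sets from 5374 to 2638, 2699, 2601 and 2370. For KO, leaving out KO female E12.5, KO male E12.5, KO female E14.5 or KO male E14.5 took 4837 to 0, 1463, 1202 and 1728. Without centring, 9 of the 21 male stage calls had the opposite sign, and after quantile normalization 0 did. The share of called probe sets that were higher was 48.8%, against 11.1% without centring and 54.8% after quantile normalization.

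Among the genes of arachidonic acid release, which include the phospholipases, 2 of 7 fitted genes rose and 3 fell from E12.5 to E14.5 in males (71.4%). Of all fitted probe sets 77.8% passed there, so nothing is read from this count. Pla2g4a, the cytosolic enzyme that supplies cyclooxygenases, fell from E12.5 to E14.5 in males (-1.35 ± 0.10, limma adjusted p = 2.2e-04, a fitted value that depends on the floor). It was at 8.17 in WT and 8.50 in KO males at E12.5 and below the floor in both at E14.5. Pla2g12a fell as well (-1.22 ± 0.13, limma adjusted p = 7.8e-04). Pla2g6 (0.54 ± 0.09, adjusted p = 0.0033) and the monoacylglycerol lipase gene Mgll (0.71 ± 0.05, adjusted p = 1.8e-04) rose, but both of these turned sign without centring.

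Among 7 fitted genes of the synthase list, Tbxas1, the thromboxane synthase gene, rose from E12.5 to E14.5 in males (1.07 ± 0.06, limma adjusted p = 1.1e-04) and in females (0.51 ± 0.06, adjusted p = 0.012). Gstm2, a mu-class glutathione transferase, and Akr1b8, an aldo-keto reductase, were higher in males. At E12.5 Gstm2 was at 10.32 in WT and 10.01 in KO females and at 11.34 in WT and 11.31 in KO males, and it was the 1 gene of the 29 with a 2-fold sex difference at E12.5, in both genotypes. Over all fitted probe sets 0.402% differed 2-fold between the sexes at E12.5 in WT and 0.391% in KO. The male minus female value of Gstm2 was 0.69 ± 0.10 in WT (limma adjusted p = 0.0040) and 1.14 ± 0.10 in KO (0.0019), and that of Akr1b8 was 0.91 ± 0.13 (0.0038) and 0.83 ± 0.13 (0.0061). Ptgis, the prostacyclin synthase gene, had a male stage difference of 0.42 ± 0.13 (adjusted p = 0.033) that turned sign without centring. Gstm2 was also among the nearest 5 to Ptgds probe set B over 6 arrays (0.18). The WT sex values here and the female stage value of Tbxas1 use the array labelled WT female E14.5, which carried the Y-linked signal. On that array Gstm2 was at 10.83, against 10.14 in KO females at E14.5.

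The transport and breakdown list is the closest in role to Hpgd. With stage in males 77.8% of all fitted probe sets passed, 38.0% higher and 39.9% lower. In this list 3 of 4 fitted genes (75%) rose and 0 fell. They were Slco3a1, a carrier of organic anions including prostaglandins (0.32 ± 0.05, limma adjusted p = 0.0021), the carbonyl reductase gene Cbr3 (0.71 ± 0.07, 4.4e-04) and Faah, the fatty acid amide hydrolase gene (0.66 ± 0.04, 1.0e-04). All 3 turned sign without centring, and nothing is read from this count. Faah was below the floor on both E12.5 male arrays, so its fitted value also depends on the floor. Slco3a1 was also higher in males than females, by 0.61 ± 0.05 in WT (limma adjusted p = 0.0010). It was at 6.89 in WT and 6.73 in KO females at E12.5, below the floor, so this value depends on the floor. The WT value also uses the array labelled WT female E14.5, which carried the Y-linked signal. Ptgr1, a prostaglandin reductase that acts after Hpgd, was at 9.45 in WT and 9.66 in KO females and at 9.15 in WT and 9.57 in KO males at E12.5. At E14.5 Ptgr1 was at 9.68 in WT and 8.82 in KO females and at 9.10 in WT and 8.56 in KO males. Its KO minus WT differences were thus positive at E12.5 and negative at E14.5 in both sexes, as for Ptgds and not as for Hpgd, and the difference between the stages was not tested. The E14.5 female difference of Ptgr1 uses the array labelled WT female E14.5, which carried the Y-linked signal.

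Of the 12 receptor genes with a probe set, 8 were below the floor on every array. Ptgdr, the receptor gene for prostaglandin D2 that couples to cyclic AMP, was among these, between 4.83 and 6.13, and is named after its values were seen. Of the 12 receptor genes 4 were fitted, where 6353 of the 8252 genes with a probe set of their own had a fitted probe set. The floor lies above 40% of all values by its definition, so a level below it does not show that a transcript was absent. The second receptor gene for prostaglandin D2, Ptgdr2, was above the floor throughout and rose with stage in males (0.69 ± 0.07, limma adjusted p = 6.9e-04), a sign that turned without centring. Ptger1, a prostaglandin E2 receptor gene, rose in males (1.35 ± 0.07, adjusted p = 1.1e-04), as did the thromboxane receptor gene Tbxa2r (0.94 ± 0.08, 3.9e-04). Ptger4, another prostaglandin E2 receptor gene, fell with stage in females (-0.92 ± 0.18, adjusted p = 0.028) and males (-0.54 ± 0.18, 0.040). At E12.5 it was at 8.50 in WT and 7.70 in KO females and at 8.37 in WT and 8.06 in KO males. At E14.5 it was at 7.28 in WT and 7.08 in KO females and at 7.61 in WT and 7.74 in KO males, so the KO was lower in 3 of 4 pairs. The E14.5 female pair and the female stage value use the array labelled WT female E14.5, which carried the Y-linked signal.

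In the lipoxygenase and leukotriene branch, which uses the same arachidonic acid, 6 of 7 fitted genes rose with stage in males and 1 fell. Of all fitted probe sets 77.8% passed there, 38.0% higher and 39.9% lower. The median stage difference of the 7 was 0.93, beside -0.003 over all fitted probe sets. Without centring the median was 0.15, with 4 of the 7 above 0, and the signs of Alox12e and Ltc4s turned, while after quantile normalization the median was 0.99. Ephx1, the microsomal epoxide hydrolase gene, rose by 1.86 ± 0.15 (limma adjusted p = 2.8e-04), the epidermal lipoxygenase gene Aloxe3 by 1.26 ± 0.06 (8.7e-05), Alox12 by 0.99 ± 0.07 (1.8e-04, a value that depends on the floor) and the leukotriene hydrolase gene Lta4h by 0.93 ± 0.06 (1.4e-04). Ephx1 was at 7.18 in WT and 7.13 in KO males at E12.5 and at 9.21 in WT and 8.81 in KO males at E14.5. No gene of this branch passed with stage in females.

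**Figure D4:**
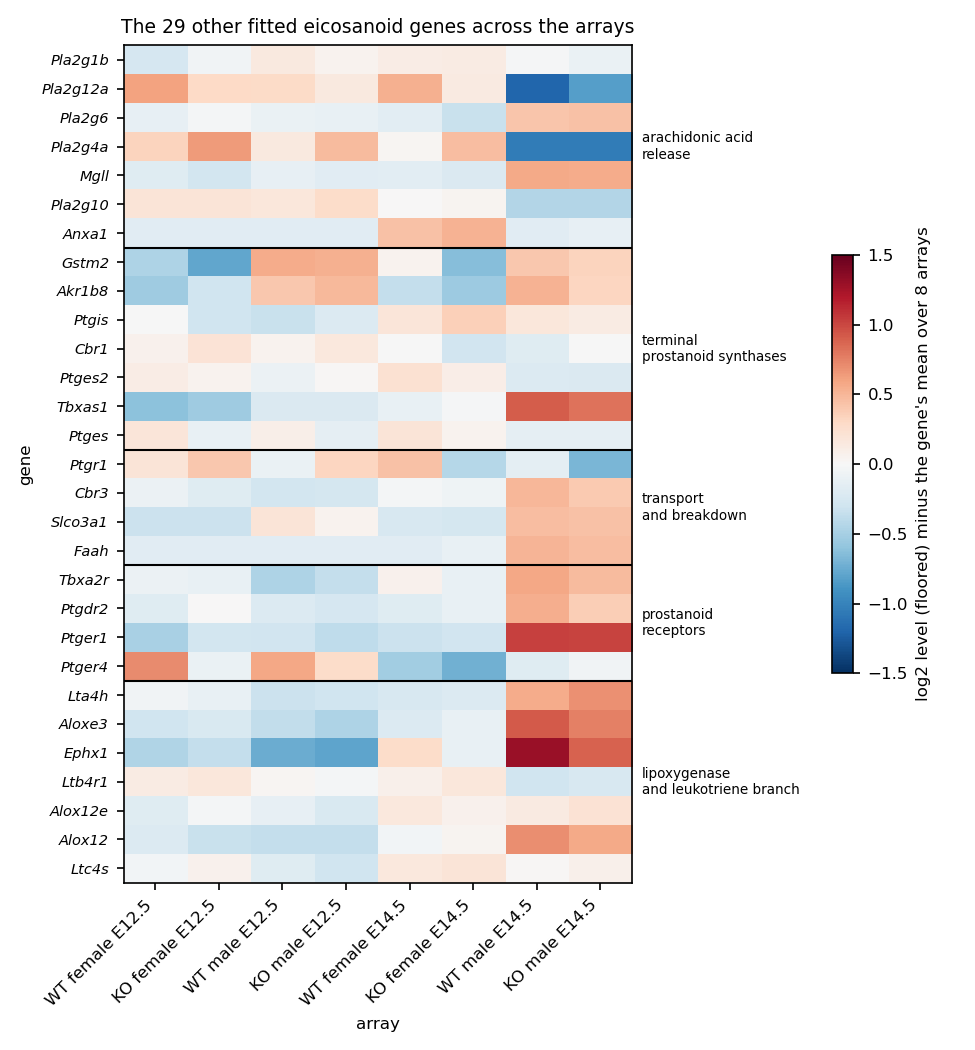
Floored log2 level of the 29 fitted pathway genes (rows, grouped by list) on the 8 arrays (columns), minus each gene's mean over the arrays, with red above and blue below that mean. The strongest colours, such as for Ephx1, Ptger1, Pla2g4a and Pla2g12a, lie in the columns of the E14.5 males.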

How the data were processed

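Embryonic gonads were measured on 8 arrays, from 8 µg of labelled total RNA each. The deposited values were log2 summaries per probe set; the submitters' processing notes name MAS5, its version and scaling being not given in the sources used here. In 1 column, which per the file's values otherwise holds the authors' log2 values, 14 cells held date serial numbers from 41278 to 41284 and were set to missing. Arrays were centred on the mean of their medians and floored at the 40th percentile. The fit kept those exceeding the floor on 2 or more arrays, less 66 controls. A single gene was annotated for 10833 probe sets, more than 1 for 396 and none for 1193, and the probe set with the highest mean stood for a gene.

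Comparisons used limma 3.58.1 in R 4.3.3 with genotype and stage effects fitted within each sex, a trend on intensity, and Benjamini-Hochberg adjustment across 8452 probe sets, two-sided, with 2 residual and 2.77 prior degrees of freedom. The script was tested on simulated data. Pairs of arrays were counted at 2-fold. The members, gene lists and motifs were chosen with earlier results of these data known. Named pathway genes were those that passed or differed 2-fold in a pair, up to 4 a list by their largest pair difference.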

Additional observations from a re-analysis of the deposited data

Results flagged for a closer look

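For Ptgds the KO minus WT difference was positive in both E12.5 pairs and negative in both E14.5 pairs on each of its 3 probe sets, A, B and C. The E12.5 differences were small and lay within the middle 90% of fitted probe sets. The mean of the E14.5 pairs minus that of the E12.5 pairs was -1.27 on A (0.13 at E12.5 and -1.14 at E14.5), -0.71 on B (0.12 and -0.60) and -0.42 on C (0.06 and -0.36). The E14.5 mean of A joins -1.61 in females and -0.68 in males, and the female pair uses the array labelled WT female E14.5, on which Eif2s3y, a Y-linked gene, was at 7.63. These differences between the stages were not tested, and the 3 probe sets measure 1 gene on the same arrays.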

How the results depend on the processing

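The counts of 0 called probe sets in the 4 KO comparisons were 0 under every alternative run. For the stage difference in females, 1949 probe sets passed, against 5156 without centring, 40 without a filter on low values, 0 when any 1 array was left out and 0 without both E14.5 male arrays, an alternative chosen after seeing the data. For the stage difference in males, leaving out 1 array gave 4982 to 6144. The sex difference in WT gave 2370 to 4511 with 1 array left out. That in KO gave 0 to 3796, and 3223 without the filter. Called probe sets that were higher made up 36.5% of the calls for stage in females, 5.24% without centring and 49.0% after quantile normalization. For the sex difference in WT they made up 47.4% and, without centring, 37.3%, and in KO 53.7% and 32.7%. Of 165 alternative values for Hpgd 161 kept their sign, and of 495 for Ptgds 458 did. No difference of at least 2-fold changed sign. With 1 array a group, no paired analysis was possible because the labels give no replicate numbers. The floor, the centring of the E14.5 male arrays and the lack of replicates limit all values.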
